A study of Mus musculus with 2 samples.

Results

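The 10 CC chemokine ligands described here are Ccl2, Ccl3, Ccl4, Ccl5, Ccl6, Ccl7, Ccl9, Ccl17, Ccl22 and Ccl24. They were chosen by symbol, all 10 were found in both libraries, and they are 10 of the 28692 genes counted. Their unique molecular identifiers (UMIs, tags that count captured RNA molecules) were summed over classes of immune cells gated by marker genes, none of which is a CC chemokine. Mononuclear cells of the liver of C57BL/6 mice had been taken on day 14 and isolated by density centrifugation after hepatocytes were spun out. The MC38 group had received cells of the mouse colon adenocarcinoma line MC38 into the spleen and carried liver tumor. The group called the control here received PBS into the spleen and is labelled as without tumor. The protocol text, which is the same for both groups, gives 500000 MC38 cells into the spleen with removal of the spleen, and 3000000 MC38 cells under the skin. Whether the control mice kept their spleens or bore a subcutaneous tumor was not stated in the labels. Each library pooled 3 mice, and there was 1 library per group, so no test between groups was possible.

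CC chemokines are small secreted proteins with a pair of adjacent cysteines near the amino end, and they draw leukocytes through G-protein-coupled receptors of the CCR family. Ccl17 and Ccl22 bind Ccr4 and are known from dendritic cells, which present antigen to T cells. Ccl3, Ccl4 and Ccl5 are made by activated lymphocytes and by myeloid cells, while Ccl2 and Ccl7 bind Ccr2 and call monocytes out of bone marrow and blood. Ccl6 and Ccl9 are rodent ligands of Ccr1, and Ccl24, also called eotaxin 2, binds Ccr3 on eosinophils and basophils.

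On GRCm38, 7 of the ligand genes lie on chromosome 11, 2 on chromosome 8 and 1 on chromosome 5. On chromosome 11, Ccl2 (82035571 to 82037453, plus strand) neighbours Ccl7 (82045712 to 82047525, plus). Further along stand Ccl5 (83525778 to 83530518, minus), Ccl9 (83572919 to 83578636, minus), Ccl6 (83587882 to 83593087, minus), Ccl3 (83647844 to 83649355, minus) and Ccl4 (83662584 to 83664683, plus). Ccl22 (94745590 to 94751699, plus) and Ccl17 (94810453 to 94812036, plus) are neighbours on chromosome 8, and Ccl24 lies at 135569937 to 135573049 on the minus strand of chromosome 5. All 10 are protein-coding. The annotation places the antisense gene Gm17268, which had 0 UMIs, over Ccl2, and the antisense gene E230016K23Rik, which is not among the counted genes, over Ccl6.

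RefSeq promoter windows on GRCm38.p6, from 250 bases before to 50 bases after the start, were matched for 5 of the 10 genes (Ccl3, Ccl6, Ccl9, Ccl17 and Ccl22). The windows of Ccl17 and Ccl22 are printed because both genes were carried by dendritic classes and yet differed between those classes. Capitals mark GGGACTT (the first letters of a kappa B sequence) and TTC and GAA parted by 3 or 4 bases (both of the STAT type), read on both strands.
Ccl17 promoter, chr8:94810203-94810502, plus strand: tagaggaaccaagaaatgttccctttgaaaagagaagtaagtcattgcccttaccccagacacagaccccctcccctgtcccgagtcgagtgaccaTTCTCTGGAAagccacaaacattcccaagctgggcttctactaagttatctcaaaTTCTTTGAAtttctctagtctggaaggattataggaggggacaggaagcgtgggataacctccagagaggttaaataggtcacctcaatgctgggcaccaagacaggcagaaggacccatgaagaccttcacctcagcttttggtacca
Ccl22 promoter, chr8:94745434-94745733, plus strand: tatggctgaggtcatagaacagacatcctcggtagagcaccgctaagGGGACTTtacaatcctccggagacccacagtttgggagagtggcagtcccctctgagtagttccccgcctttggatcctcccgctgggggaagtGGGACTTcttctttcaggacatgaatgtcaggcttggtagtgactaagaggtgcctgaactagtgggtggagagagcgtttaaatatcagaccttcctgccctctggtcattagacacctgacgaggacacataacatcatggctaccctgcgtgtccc
GGGACTT occurred in the Ccl22 window with its first base 203 and 109 bases before the start. It stood in 5.44% of all 32851 RefSeq promoter windows of this length. In the Ccl17 window the STAT-type sequence with 4 bases in the middle began 154 and that with 3 began 99 bases before the start, and 6.95% and 8.3% of all windows hold them. No stretch of at least 10 bases was shared by the Ccl17 and Ccl22 windows. The windows of Ccl6 and Ccl9 are printed because these neighbouring genes appeared together in myeloid classes. Capitals mark the 4 stretches of at least 10 bases that the pair share, of which 2 overlap in Ccl9.
Ccl6 promoter, chr11:83593038-83593337, minus strand: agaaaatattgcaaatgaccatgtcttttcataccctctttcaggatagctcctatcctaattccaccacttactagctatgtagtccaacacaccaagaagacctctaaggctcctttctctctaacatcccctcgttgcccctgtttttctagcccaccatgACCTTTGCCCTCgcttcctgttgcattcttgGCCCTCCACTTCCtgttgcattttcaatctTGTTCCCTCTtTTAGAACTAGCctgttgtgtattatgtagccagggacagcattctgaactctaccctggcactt
Ccl9 promoter, chr11:83578587-83578886, minus strand: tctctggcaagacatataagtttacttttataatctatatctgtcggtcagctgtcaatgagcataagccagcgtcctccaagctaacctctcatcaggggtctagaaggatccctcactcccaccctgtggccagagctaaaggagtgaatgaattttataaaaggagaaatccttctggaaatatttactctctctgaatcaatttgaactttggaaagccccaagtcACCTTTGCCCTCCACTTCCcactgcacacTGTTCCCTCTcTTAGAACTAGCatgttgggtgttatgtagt
The longest shared stretch was 13 bases, and of the 10 pairs among the 5 windows Ccl6 with Ccl9 was the pair with 4 such stretches; 2 other pairs had 1 each, of 10 bases. GGAAGT, the core of an ETS sequence, was found in the windows of Ccl3, Ccl6, Ccl9 and Ccl22, and in 23.8% of all windows. In all, 8 motifs were searched; the others were the open-middle kappa B sequence (in Ccl22 and Ccl9, 50.8% of all windows), TGANTCA (AP-1, in Ccl9, 7.81%), TATAAA (in Ccl9, 13.6%) and TATAAG (in Ccl9 and Ccl3, 7.43%). The matches in capitals did not overlap each other, whereas 2 of the 3 TATAAA matches of Ccl9 overlapped. These matches describe letters in a window and not binding.

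In the control, 91617457 UMIs were spread over 14258 barcodes, and in MC38 114421875 UMIs over 19822 barcodes. More than 10% mitochondrial UMIs were found in 74.8% of control barcodes and 33.3% of MC38 barcodes, and after filtering 3448 and 11855 cells were kept. The gate gave a class to 82.7% and 84.7% of them, and 63 barcodes were shared by the libraries, 8 of them among kept cells. A class name below stands for cells that resemble the type by these markers. Both libraries had 50 or more cells in 8 immune classes: T cells (637 control, 357 MC38), NK or ILC1 cells (307, 209), B cells (179, 944), plasmacytoid dendritic cells or pDC (388, 173), cDC1 (138, 116), cDC2 (152, 109), classical monocytes (580, 3359) and basophils or mast cells (94, 163). Mature dendritic cells (35, 205), nonclassical monocytes (119, 33), Kupffer cells, the resident macrophages of the liver (43, 158), other macrophages (18, 288) and neutrophils (16, 202) are described too, although they fall short of that size and were added after their values were seen. Although the protocol spun hepatocytes out, cells gated as hepatocytes numbered 86 in the control (2.49% of kept cells) and 3543 in MC38 (29.9%). Ungated cells held between 10.3% (Ccl3, control) and 56.0% (Ccl17, control) of the UMIs of a ligand in kept cells.

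A level below is the UMIs of the gene per 1000000 UMIs of the class (CPM). It is not divided by gene length, so levels are compared between classes and libraries and not between genes. Its ratio is MC38 over control, with an exact 95% interval that covers counting error only. A ligand was called higher or lower at a ratio of at least 1.5 whose interval excluded 1, with 10 or more UMIs over both libraries. B cells served as the reference for free RNA, because they are not a known source of the myeloid ligands. Among B cells Ccl6 was at 9.75 CPM (control) and 46.1 CPM (MC38), Ccl9 at 2.44 and 10.6 CPM, Ccl5 at 24.4 and 27.6 CPM, and Ccl17, Ccl22, Ccl2 and Ccl7 at no more than 2.73 CPM in either library.

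The ligands differed in their carriers, though Ccl3 and Ccl4 shared theirs, as did Ccl6 and Ccl9 in large part. The carriers were mostly the same classes in both libraries. Ccl5 was highest in NK or ILC1 cells, mature dendritic cells and T cells, and Ccl3 and Ccl4 in basophils or mast cells. Ccl6 and Ccl9 were high in monocytes, basophils or mast cells and cDC2, and in Kupffer cells and other macrophages of MC38. Ccl6 was also high in control Kupffer cells and in MC38 neutrophils. Ccl22 was high in mature dendritic cells, and Ccl24 in Kupffer cells. Ccl17 was low in cDC1 and cDC2 of the control and high in both in MC38.

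**Figure D1:**
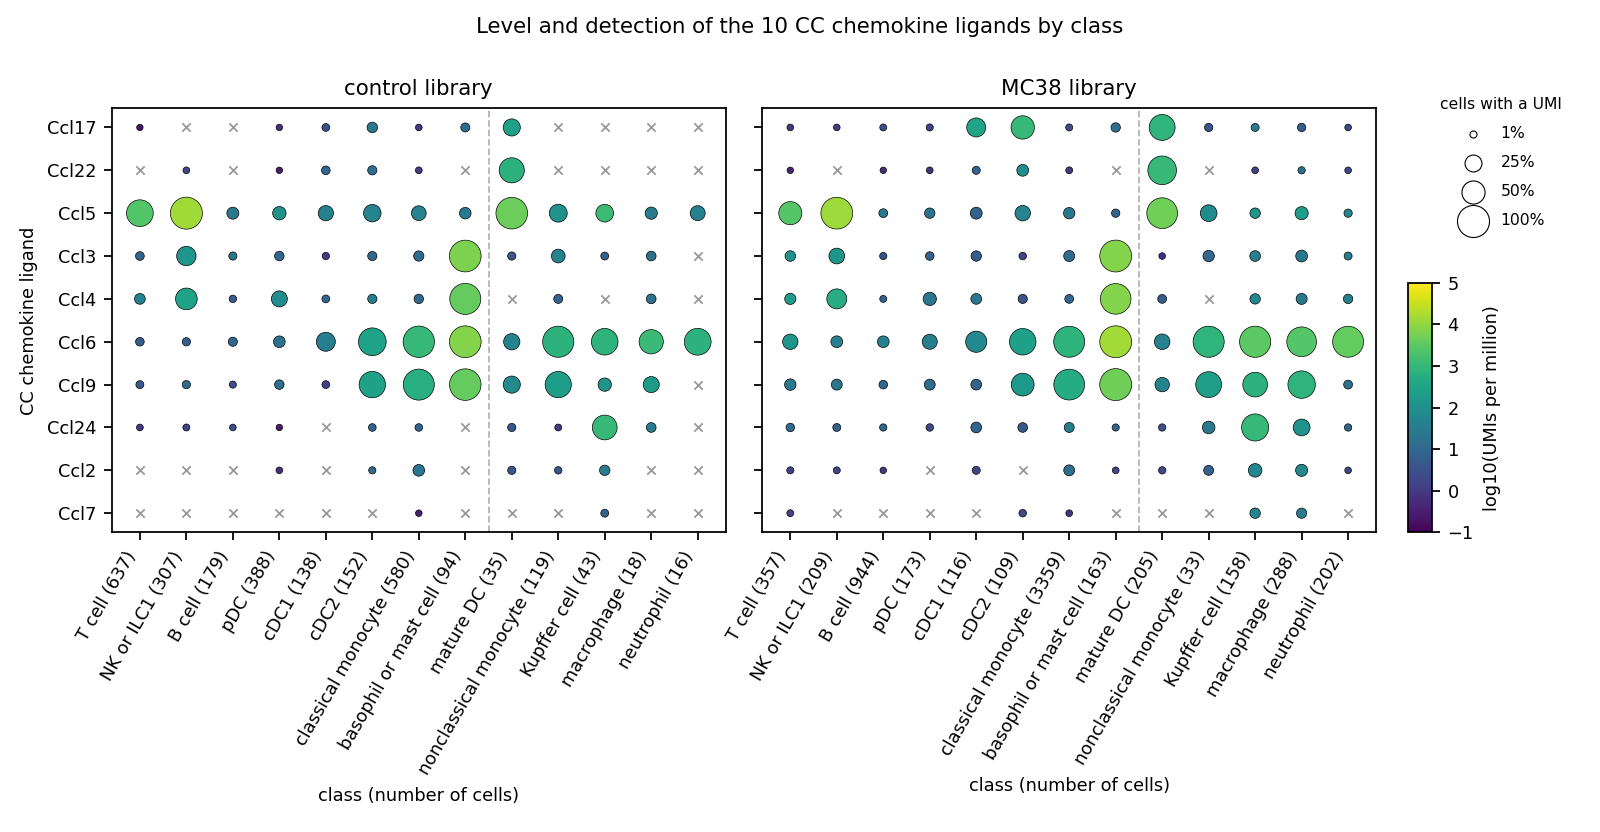
Level and detection of the 10 CC chemokine ligands in 13 immune classes, with the control library on the left and the MC38 library on the right; colour is log10 of the CPM, area grows with the percent of cells with a UMI, crosses mark 0 UMIs, and classes right of the dashed line have under 50 cells in a library. Ccl17 in cDC2 is 1073 CPM in MC38 and 23.9 CPM in the control, while Ccl5 in NK or ILC1 cells is 13476 and 13790 CPM.

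Among the 8 classes of at least 50 cells, Ccl17 in cDC1 and cDC2 had the widest gaps between the libraries. In cDC2 its 42 control UMIs lay in 11 of 152 cells (7.24%) and gave 23.9 CPM, against 1420 UMIs in 56 of 109 cells (51.4%) and 1073 CPM in MC38. The ratio was 44.8 (95% interval 33 to 62.4). In cDC1, the dendritic cells that cross-present antigen to CD8 T cells, 6 UMIs in 3 of 138 control cells (2.17%) gave 3.08 CPM, and 477 UMIs in 38 of 116 MC38 cells (32.8%) gave 305 CPM. That ratio was 99.2 (45.2 to 272), and its width follows from the 6 control UMIs. With every cell thinned to 1000 UMIs, the share with Ccl17 was 1.46% and 18.1% in cDC1 and 1.32% and 30.3% in cDC2. In B cells, with median depths of 3501 and 2783 UMIs against 10948.5 and 12187 in cDC2, Ccl17 was seen in 0 of 179 control cells, which allows a share of up to 1.68%, and in 0.953% of MC38 cells. The cDC2 UMIs of MC38 were spread from cells with 0 to a cell with 168, and the 10 highest cells held 62.3% of them. Without the 10 highest cells of each library, the log2 ratio in cDC2 was 9.51, against 5.49 with all cells. Only 11 control cells had Ccl17, so this left nearly none of its 42 control UMIs, and the 9.51 rests on that remainder. Under a mitochondrial limit of 30% the log2 ratio in cDC2 was 2.26. At that limit the control level in cDC2 was 217 CPM, from 537 UMIs in 7.69% of 221 cells, and the MC38 level 1041 CPM in 50.4% of 115 cells, so the level of the control moved with the filter while its share of cells did not. In cDC1 the levels at that limit were 2.11 and 304.5 CPM.

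Mature dendritic cells, which have migrated or are about to and carry Ccr7, already had Ccl17 in the control. The level was 251 CPM there, from 61 UMIs in 9 of 35 cells, and 801 CPM in MC38, from 1191 UMIs in 131 of 205 cells. The ratio was 3.19 (2.46 to 4.20), and a single control cell held 38 of the 61 UMIs. When cells were thinned to 1000 UMIs the log2 ratio was 0.27, against 1.67. Ccl22 in the same class was at 679 CPM in 21 of 35 control cells and 1036 CPM in 162 of 205 MC38 cells, with a ratio of 1.52 (1.30 to 1.80), and the call was kept in 4 of 9 alternatives. Of the Ccl22 UMIs in gated cells, this class held 69.0% in the control and 87.2% in MC38. The corresponding shares of Ccl17 in mature dendritic cells were 50.0% and 36.1%, and cDC2 held 34.4% and 43.1%.

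Ccl22 did not follow Ccl17 in cDC1. It was at 9.24 CPM (control) and 8.32 CPM (MC38), a ratio of 0.901 (0.406 to 1.94), seen in 5 of 138 and 3 of 116 cells. The absence of a call was kept in 5 of 8 alternatives: at the 30% limit Ccl22 was at 14.5 and 7.61 CPM (ratio 0.526), and with classes from clusters its log2 ratio of -0.15 was -3.06. In cDC2 it was higher in MC38, at 88.4 against 14.2 CPM (ratio 6.20, 4.0 to 9.97), in 11 of 109 and 7 of 152 cells. Of the 38 MC38 cDC1 with Ccl17, 2 also had Ccl22, while 112 of the 131 MC38 mature dendritic cells with Ccl17 did (85.5%). In MC38 cDC2 the overlap was 8 cells, of 56 with Ccl17 and 11 with Ccl22. The markers of mature dendritic cells summed to 36.4 and 35.8 CPM in cDC1, with 7 of 9 detected in each library, and to 78.1 and 247 CPM in cDC2, against 8790 and 8228 CPM in mature dendritic cells themselves. The part of such cells in the cDC2 values was not tested.

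**Figure D2:**
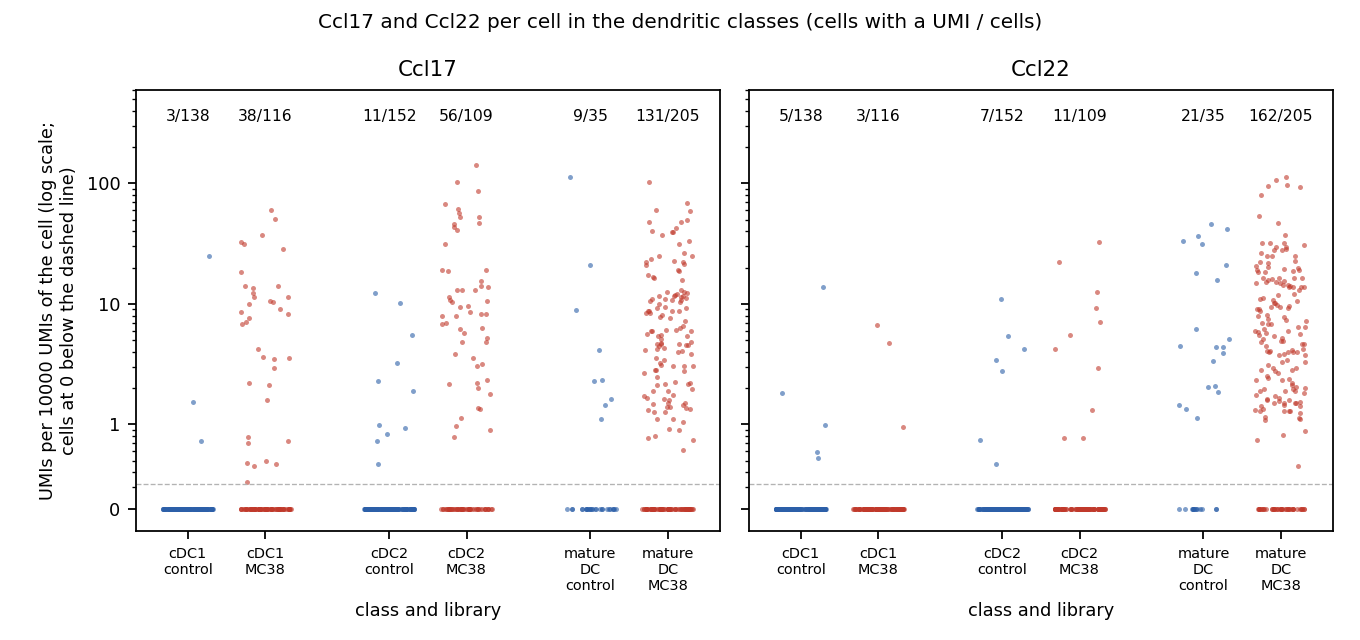
Ccl17 (left) and Ccl22 (right) per cell, as UMIs per 10000 UMIs of the cell on a log axis, in cDC1, cDC2 and mature dendritic cells of the control (blue) and MC38 (red) libraries; each point is a cell, cells at 0 stand below the dashed line, and the numbers are cells with a UMI over all cells. Ccl17 appears in 38 of 116 cDC1 and 56 of 109 cDC2 of MC38, against 3 of 138 and 11 of 152 in the control, and Ccl22 stays sparse in cDC1 of both.

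The other ligands of cDC1 and cDC2 were low. In cDC1 5 of 8 ligands tested were called higher (6% of all genes tested were) and 1 lower (8.15%); in cDC2 2 of 9 were higher (8.27%) and 4 lower (7.61%). The higher ones in cDC1 besides Ccl17 were Ccl4, Ccl6, Ccl9 and Ccl24, none above 67.2 CPM in MC38, where Ccl6 in B cells was at 46.1 CPM. MC38 cDC1 were deeper, with a median of 14115 UMIs against 2783 in B cells. Ccl6 was seen in 48 of 116 and 93 of 944 of these cells, and in 7.76% and 4.06% after thinning. How much of it was free RNA was not tested. In cDC1 macrophage markers summed to 126 and 396 CPM in the control and MC38, with 8 of 9 detected in each, and Kupffer cell markers to 33.9 and 105 CPM, with 8 of 8; their part was not tested. With thinning the log2 ratio of Ccl4, 1.54, was -0.76, on 2 and 1 UMIs, and Ccl9 kept its call in 5 of 8 alternatives. Ccl24 had 0 UMIs in control cDC1 and 13 in MC38, a ratio of 5.41 to a floor of 3 counts in the control class. That ratio leaves out the counting error of the 13 UMIs and is not a lower bound. At the higher alternative mitochondrial limit Ccl24 in cDC1 had 8 control and 13 MC38 UMIs, a ratio of 3.15. Of the lower calls in cDC2, Ccl2 rested on 18 control UMIs of which 17 lay in 1 cell, and Ccl4 on 52 control UMIs of which 41 lay in 1 cell. Ccl6 and Ccl9, by contrast, were found in 112 and 101 of 152 control cDC2. Ccl9 was lower in MC38, at 175 against 277 CPM (ratio 0.633, 0.539 to 0.741), and Ccl6 at 242 against 288 CPM was not called. The Ccl9 call was kept in 6 of 10 alternatives, and with classes from clusters its log2 ratio of -0.66 was 0.04. Classical monocyte markers in cDC2 summed to 2484 CPM in the control and 1440 CPM in MC38, with 9 of 10 and 10 of 10 detected; their part in the result was not tested. In pDC, the type known for interferon, Ccl4 was lower, at 24.6 against 82.6 CPM (ratio 0.297, 0.20 to 0.427), and was seen in 24 of 173 and 85 of 388 cells. Ccl5 was also called lower in pDC, but 1 control cell held 114 of its 332 UMIs and the direction turned with doublet calls kept. Of 5 ligands tested in pDC, 1 (Ccl6) was higher (5.29% of all genes) and 2 lower (5.3%). Ccl6 there was at 18.6 and 36.5 CPM, and at the 5% mitochondrial limit its log2 ratio of 0.97 was -1.18, on 8 and 3 UMIs.

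Ccl5, which attracts T cells and monocytes, differed little between the libraries in the lymphoid classes that carried it. NK or ILC1 cells had it at 13790 CPM (control) and 13476 CPM (MC38) (ratio 0.977, 0.957 to 0.998), in 306 of 307 and 205 of 209 cells. Their median cell held 61 and 57 UMIs of Ccl5 and the highest 311 and 356. Among T cells the level was 2387 and 2490 CPM (ratio 1.04, 1.01 to 1.08). Yet 68.1% of control T cells and 50.1% of MC38 T cells had a Ccl5 UMI, and 48.1% and 39.4% after thinning to 1000 UMIs. Cells with Cd8 but without Cd4 UMIs had nearly equal shares, 59.8% of 184 and 58.5% of 118. Cells with Cd4 but without Cd8 differed more, 61.2% of 183 (95% interval 53.7% to 68.3%) against 40.0% of 110 (30.8% to 49.8%), although their CPM was 1015 in the control and 1649 in MC38. T cells with neither had shares of 79.2% of 260 and 51.2% of 123.

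Mature dendritic cells carried Ccl5 at 4475 CPM (control) and 5044 CPM (MC38), in 34 of 35 and 188 of 205 cells, above the T cell level in both libraries. Their NK or ILC1 markers summed to 28.8 and 16.8 CPM, with 5 of 9 and 4 of 9 at 0, among them Klrb1c and Eomes in both, and their T cell markers to 12.3 and 3.36 CPM, with 8 of 11 at 0 in each. With 35 and 205 gated cells, the class held 3.03% of the Ccl5 UMIs in the control and 24.8% in MC38, while NK or ILC1 cells held 61.1% and 49.3% and T cells 32.4% and 19.0%. Numbers of cells per class follow isolation and filtering as well as the tissue. In classical monocytes Ccl5 was lower in MC38, at 23.4 against 52.0 CPM (ratio 0.450, 0.394 to 0.516), close to the B cell level of 27.6 CPM. MC38 monocytes were deeper, with a median of 11380 UMIs against 2783 in B cells. Ccl5 was seen in 307 of 3359 and 37 of 944 of these cells, and in 1.523% and 1.175% after thinning. With doublet calls kept the log2 ratio of -1.15 in monocytes was -0.10. The NK or ILC1 markers of classical monocytes summed to 27.2 CPM in the control and 6.20 CPM in MC38, and the T cell markers to 31.8 and 9.34 CPM; their part in the result was not tested.

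**Figure D3:**
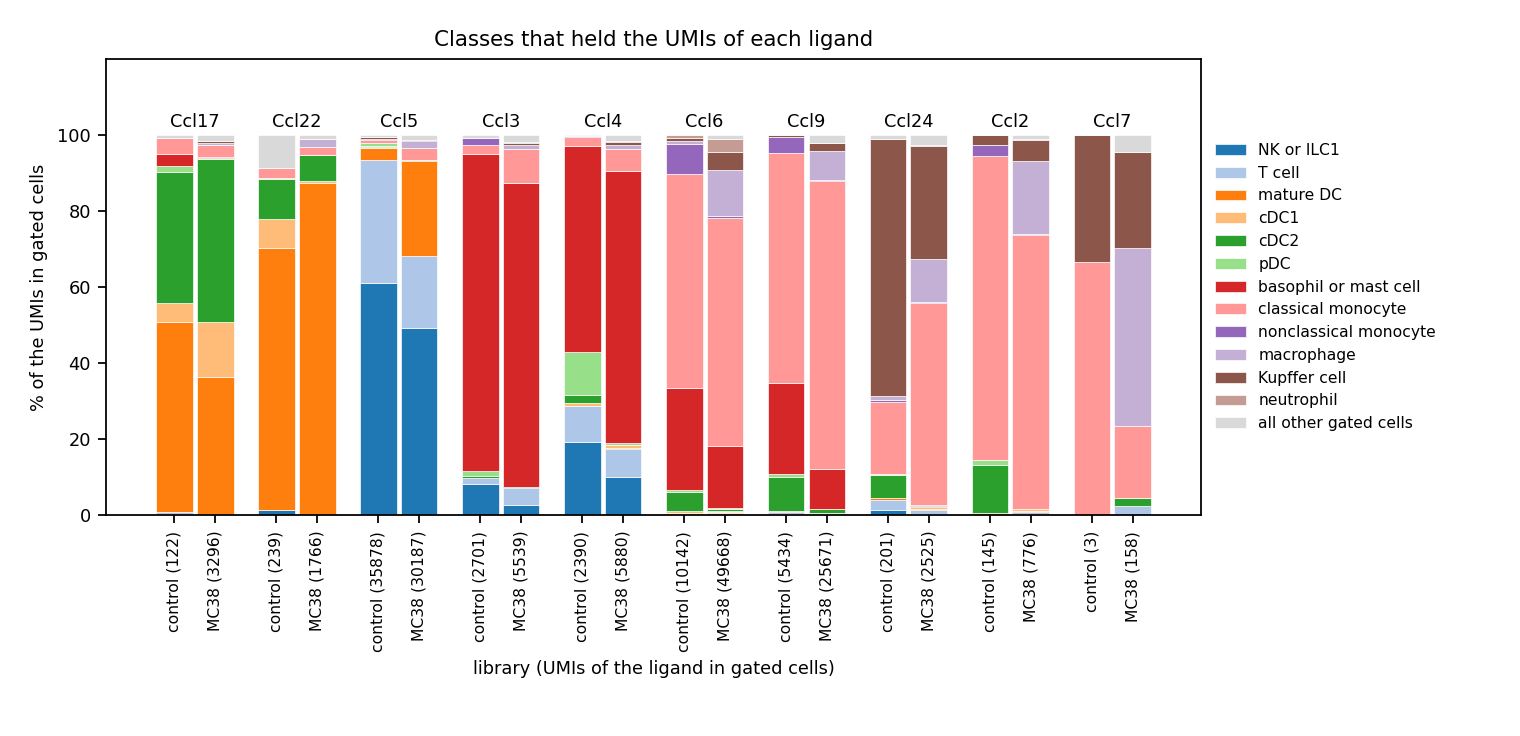
Percent of the UMIs of each ligand in gated cells that each class held, in the control and MC38 libraries, with the number of UMIs in brackets. Basophils or mast cells held 83.3% and 79.9% of Ccl3 in the control and MC38 libraries, mature dendritic cells 69.0% and 87.2% of Ccl22, and Kupffer cells 67.7% and 29.8% of Ccl24; Ccl7 had 3 UMIs in the control.

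Ccl3 and Ccl4, also known as macrophage inflammatory proteins 1-alpha and 1-beta, were carried above all by basophils or mast cells, a small class of granular cells that release histamine. With 94 and 163 cells, this class held 83.3% and 79.9% of the Ccl3 UMIs and 54.2% and 71.6% of the Ccl4 UMIs. Ccl3 stood at 6463 CPM (control) and 7883 CPM (MC38) (ratio 1.22, 1.16 to 1.28), in 92 of 94 and 161 of 163 cells, and was not called. Ccl4 was higher in MC38, at 7502 against 3725 CPM (ratio 2.01, 1.89 to 2.15). The median cell did not show this: it held 11 Ccl4 UMIs in the control and 10 in MC38, and the highest cell 63 and 319. Without the 10 highest cells of each library the log2 ratio of Ccl4 was 0.76, against 1.01 with them. In this class 2 of 6 ligands tested, Ccl4 and Ccl6, were called higher (6.4% of all genes tested were) and 1, Ccl5, lower (7.68%); Ccl5 there rested on 10 and 5 UMIs.

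Lymphocytes had much less Ccl3 and Ccl4, and in T cells most of it came from a few cells. Of 244 Ccl3 UMIs of MC38 T cells, 92.6% lay in 10 cells, and 26 of 357 cells had any; in the control 24 of 637 cells had 41 UMIs. The level was 8.42 CPM in the control and 106 CPM in MC38 (ratio 12.6, 9.02 to 18.0). Ccl4 was at 45.8 and 191 CPM (ratio 4.17, 3.54 to 4.92), in 7.69% and 8.68% of T cells, and without the 10 highest cells of each library its log2 ratio was 0.23 in place of 2.06. Both were at their highest T cell level in MC38 T cells with Cd4 but without Cd8, where 6 of 110 cells held all 155 UMIs of Ccl3 and 6 cells all 281 of Ccl4. In NK or ILC1 cells Ccl4 was at 291 and 536 CPM (ratio 1.84, 1.63 to 2.08), but in 43.6% of control and 36.4% of MC38 cells; without the 10 highest cells the log2 ratio turned from 0.88 to -0.21. Ccl3 in that class was at 139 and 135 CPM and in 34.2% and 21.1% of cells. Ccl3 and Ccl4 were found in the same cells more often than the product of their shares: in NK or ILC1 cells thinned to 1000 UMIs, 4.89% of control and 4.83% of MC38 cells had both, against products of 2.72% and 1.73%.

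In T cells 5 of 6 ligands tested were called higher, where 8.46% of all genes tested were, and 0 lower (5.18%). NK or ILC1 cells had 3 of 6 higher (5.1%) and 0 lower (5.26%), and B cells 2 of 6 higher (5.3%) and 1 lower (6.65%). Ccl6 and Ccl9 were among the higher ones in all 3 classes. Ccl6 in T cells was at 5.34 and 133 CPM, in 23 of 637 and 71 of 357 cells, and 1 MC38 cell held 130 of its 305 UMIs; in NK or ILC1 cells it was at 6.29 and 39.9 CPM, under the 46.1 CPM of MC38 B cells. Ccl9 reached 25.2 CPM in MC38 T cells and 22.6 CPM in NK or ILC1 cells, against 64.8 CPM in cells gated as hepatocytes. Macrophage markers moved with them, summing to 137 and 471 CPM in T cells, 90 and 299.8 CPM in NK or ILC1 cells and 345 and 1046 CPM in B cells, with 9 of 9 detected in each MC38 class. Neutrophil markers summed to 68.6 and 71.7 CPM in T cells, 53.5 and 565 CPM in NK or ILC1 cells and 11 and 473 CPM in B cells, with 10, 10 and 11 of 12 detected in MC38. Hepatocyte markers summed to 156 and 516 CPM, 111 and 535 CPM, and 162 and 988 CPM in the same classes, with 10, 8 and 9 of 10 detected in MC38. The part of these cells in the result was not tested. The ratio of Ccl6 to Ccl9 UMIs in MC38 was 5.26 in T cells, 4.34 in B cells, 1.76 in NK or ILC1 cells and 0.666 in hepatocytes.

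**Figure D4:**
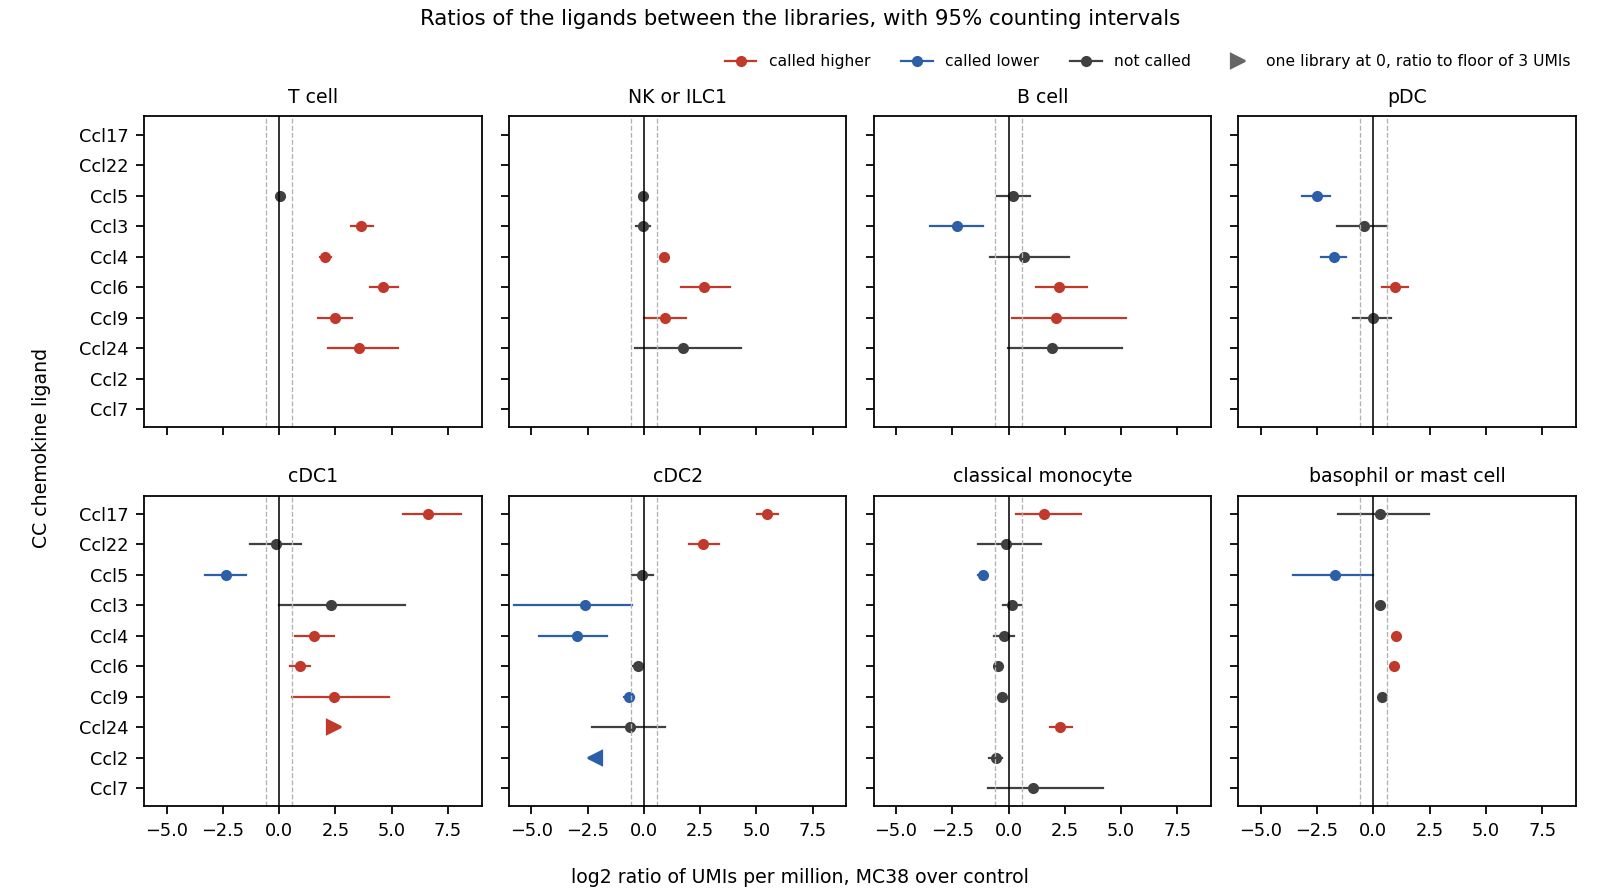
Log2 ratios of the ligands, MC38 over control, in the 8 classes of at least 50 cells, with exact 95% counting intervals; red marks ligands called higher, blue called lower and grey not called, dashed lines mark a ratio of 1.5, triangles mark a ratio to the floor of 3 counts where a library had 0, and ligands with under 10 UMIs are left out. The interval of Ccl17 lies far to the right in cDC1 and cDC2, and Ccl5 stands at 0.06 in T cells and -0.03 in NK or ILC1 cells.

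Ccl6 and Ccl9 marked the myeloid classes. In classical monocytes Ccl6 was at 1029 CPM (control) and 747 CPM (MC38) (ratio 0.727, 0.706 to 0.748), in 554 of 580 and 3131 of 3359 cells, with medians of 9 and 5 UMIs per cell. Ccl9 was at 593 and 489 CPM (ratio 0.825, 0.795 to 0.856), with a median of 5 UMIs in both. Neither was called, and these monocytes held 56.2% and 59.9% of the Ccl6 UMIs and 60.5% and 75.8% of the Ccl9 UMIs. The clusters named classical monocyte, which also held cells that the gate placed elsewhere, differed in their mix of libraries. Control and MC38 cells numbered 460 and 33 in 1 cluster, and 7 and 1272, 22 and 1282, and 4 and 519 in others. Another held 145 and 181, so the libraries were separated only in part. In the MC38 monocytes neutrophil markers summed to 6843 CPM, against 242 CPM in the control, and macrophage markers to 5414 against 1649 CPM; their part was not tested. Of 10 ligands tested in classical monocytes, 2 (Ccl17 and Ccl24) were called higher (9.8% of all genes) and 1 (Ccl5) lower (11.6%). Ccl17 there was at 0.902 and 2.69 CPM, and its log2 ratio of 1.57 was -1.69 with classes from clusters.

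Among all classes, Ccl6 was at its highest in basophils or mast cells, with 7788 CPM in the control and 14500 CPM in MC38 (ratio 1.86, 1.78 to 1.95). The median cell held 26.5 UMIs in the control and 47 in MC38, and the log2 ratio lay between 0.78 and 1.04 over the alternatives. Ccl9 in the class was at 3736 and 4836 CPM (ratio 1.29, 1.21 to 1.38) and was not called. Nonclassical monocytes had Ccl6 at 730 and 787 CPM and Ccl9 at 202 and 231 CPM; of 4 ligands tested there, 0 were higher (7.07% of all genes) and 1, Ccl3, lower (7.19%). The balance of the pair differed between classes. UMIs of Ccl6 per UMI of Ccl9 were 1.04 and 1.38 in control and MC38 cDC2, 1.74 and 1.53 in classical monocytes, 2.08 and 3.0 in basophils or mast cells, and 3.62 and 3.41 in nonclassical monocytes. Neutrophils stood apart, with 1724 UMIs of Ccl6 (3542 CPM, 188 of 202 cells) and 8 of Ccl9 in MC38, and 70 and 0 in the 16 control cells.

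Kupffer cells of MC38 had more of both. Ccl6 was at 739 CPM in 29 of 43 control cells and 3153 CPM in 149 of 158 MC38 cells (ratio 4.26, 3.47 to 5.29), and Ccl9 at 132 and 709 CPM (ratio 5.36, 3.32 to 9.27), in 14.0% and 57.6% of cells. At a mitochondrial limit of 30%, which kept 346 and 484 Kupffer cells, Ccl6 was at 764 and 3079 CPM and Ccl9 at 74.5 and 600 CPM. Macrophages outside the Kupffer class had 2527 CPM of Ccl6 and 818 CPM of Ccl9 in MC38. Classical monocyte markers summed to 1588 CPM in control and 3630 CPM in MC38 Kupffer cells, and neutrophil markers to 1767 and 221 CPM; their part was not tested. Of 9 ligands tested in Kupffer cells, 4 were called higher (5.72% of all genes tested were) and 1, Ccl5, lower (7.75%); 135 of the 160 control UMIs of Ccl5 lay in 1 cell. Ccl4 was called on 0 and 49 UMIs, 39 of them in 1 cell, and at the 30% limit it was at 48.1 and 48.9 CPM. Mature dendritic cells had 2 of 5 higher (6.85%) and 0 lower (5.14%).

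Ccl24 was at its highest in Kupffer cells, with 1059 CPM in 25 of 43 control cells and 1018 CPM in 111 of 158 MC38 cells (ratio 0.962, 0.800 to 1.16). At the 30% limit the levels were 612 and 1142 CPM, so the ratio of 1.87 (log2 0.90) then passed the call. Macrophages of MC38 had 119 CPM, in 71 of 288 cells. Classical monocytes had little, 6.86 CPM in the control and 33.8 CPM in MC38 (ratio 4.92, 3.57 to 6.99), in 1.90% and 6.13% of cells, with the 10 highest MC38 cells holding 68.9% of 1344 UMIs and 1 cell holding 321. The monocyte call held in every alternative, with log2 ratios from 1.19 to 5.84. Only 11 of 580 control monocytes had Ccl24, so leaving out the 10 highest cells left nearly none of its control UMIs. The value of 5.84 came from that alternative and says little. Classical monocytes, with 3359 cells in MC38 and 580 in the control, held 53.2% of the Ccl24 UMIs in MC38 against 18.9% in the control, and Kupffer cells 29.8% against 67.7%. In T cells Ccl24 was called higher on 5 and 28 UMIs, at 12.2 CPM in MC38, near the 9.40 CPM of B cells.

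Ccl2 and Ccl7, which bind Ccr2, were sparse. Classical monocytes held 80.0% of 145 Ccl2 UMIs in the control and 72.0% of 776 in MC38, at 20.9 and 14.0 CPM (ratio 0.671, 0.548 to 0.826), and Ccl2 was not called. As a level, Ccl2 was highest in MC38 macrophages (62.4 CPM, 31 of 288 cells) and Kupffer cells (58.2 CPM, 23 of 158 cells, against 31.1 CPM and 3 of 43 cells in the control). Ccl7 had 3 UMIs in all gated control cells and 158 in MC38, of which macrophages held 46.8%, Kupffer cells 25.3% and classical monocytes 19.0%. In Kupffer cells Ccl7 was called higher on 1 and 40 UMIs (ratio 6.96, 1.18 to 282), and 1 MC38 cell held 28 of the 40. At the 30% limit the counts were 6 and 103 (ratio 7.12), and Ccl2 was at 21.7 and 75.9 CPM (ratio 3.49). Of 19 MC38 macrophages with Ccl7, 9 also had Ccl2.

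The receptors give the other side of the pathway. In classical monocytes Ccr1, the receptor of Ccl3, Ccl6 and Ccl9, was called higher, at 33.2 CPM (control) and 196 CPM (MC38) (ratio 5.90, 5.10 to 6.87), and no receptor was called lower there. In cDC2 Ccr1 (16.5 and 112 CPM) and Ccr7 (4.56 and 37.0 CPM) were higher and Ccr2 (659 and 323 CPM) was lower. Ccr1 was called higher in nonclassical monocytes too (4.57 and 71.3 CPM, from 5 and 21 UMIs). The same held for Kupffer cells (23.4 and 94.8 CPM, from 3 and 70 UMIs). Mature dendritic cells had Ccr6 (12.35 and 46.4 CPM, from 3 and 69 UMIs) and Ccrl2 called higher. Ccr2 was also lower in cDC1 (582 and 281 CPM), in basophils or mast cells (443 and 194 CPM), in mature dendritic cells (98.8 and 24.2 CPM) and in T cells (217 and 85.6 CPM). It was higher in Kupffer cells (148 and 345 CPM), nonclassical monocytes (433 and 753 CPM) and B cells (3.65 and 13.0 CPM, from 3 and 43 UMIs), and not called in classical monocytes, NK or ILC1 cells and pDC. T cells had 2 of 9 receptors higher, Ccr1 and Ccr6, where 8.46% of all genes tested were, and 3 lower, Ccr2, Ccr9 and Ccr10, where 5.18% were. The Ccr1 call rested on 6 control and 14 MC38 UMIs, and that of Ccr6 on 10 and 15. In MC38 T cells Ccr1 was at 6.09 CPM, under the 7.58 CPM of MC38 B cells. Ccr2, Ccr7 and Ccr9 are among the gate markers, so their levels in classes depend in part on the gate. Of 10 other CC ligands on the list, at most 4 had enough UMIs in a class; Ccl1, a ligand of Ccr8, was lower in T cells (79.5 and 41.7 CPM) and higher in NK or ILC1 cells (0.63 and 27.2 CPM, from 1 and 30 UMIs), and no other was called in any class.

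Over the 29 pairs of class and library, the profile of each ligand was set beside those of other genes of at least 100 UMIs, on log2(CPM + 10). Pearson's r serves as a description, because the points share libraries and cells. The ligands themselves, gate markers, and mitochondrial, ribosomal, antigen receptor and hemoglobin genes were left out of this ranking, so none of them could be named as most like. Ccl24 was most like Fabp7 (0.97) and Mertk (0.96), Ccl7 like Mmp13 (0.99), Ccl22 like Flrt3 (0.95), and Ccl17 like Htr7 (0.86). Ccl6 was closest to Lilrb4a (0.94) and Emilin2 (0.94), Ccl9 to Adora2b (0.88), and Ccl2 to Lpl (0.91) and Msr1 (0.91), a lipase and a scavenger receptor. Ccl5 was closest to Serpinb9 (0.89), a granzyme B inhibitor, and Ccl3 and Ccl4 to Gm21994 and Wdr95 (0.92 for both with Ccl3, 0.90 and 0.94 with Ccl4). Outside the ranking, Ccl3 and Ccl4 had an r of 0.92 with each other.

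Over the 8 classes of at least 50 cells, 22 pairs of ligand and class were called higher and 10 lower, with 5 to 10 ligands tested per class. Of all genes tested in these classes, 5.1% to 9.8% were called higher and 5.18% to 11.6% lower. Of the called pairs, 30 had UMIs in both libraries, and 10 of the 30 kept their call in every alternative that gave a value. The 10 were Ccl17 in cDC1 and cDC2, Ccl3, Ccl6 and Ccl9 in T cells, Ccl6 in NK or ILC1 cells, Ccl4 in pDC, Ccl24 in classical monocytes, and Ccl4 and Ccl6 in basophils or mast cells. Of these, Ccl9 in T cells (25.2 CPM in MC38) and Ccl6 in NK or ILC1 cells (39.9 CPM) lay at or under the level of the same gene in MC38 hepatocytes (64.8 and 43.1 CPM), and Ccl6 in T cells (133 CPM) lay above it. The median log2 ratio of the ligands tested was 3.02 in T cells (0.01 over all genes tested), 1.93 in cDC1 (-0.09), 1.32 in B cells (-0.04) and 0.90 in NK or ILC1 cells (-0.06). It was 0.34 in basophils or mast cells (-0.10), -0.16 in classical monocytes (-0.04), -0.44 in pDC (-0.02) and -0.59 in cDC2 (-0.01).

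**Figure D5:**
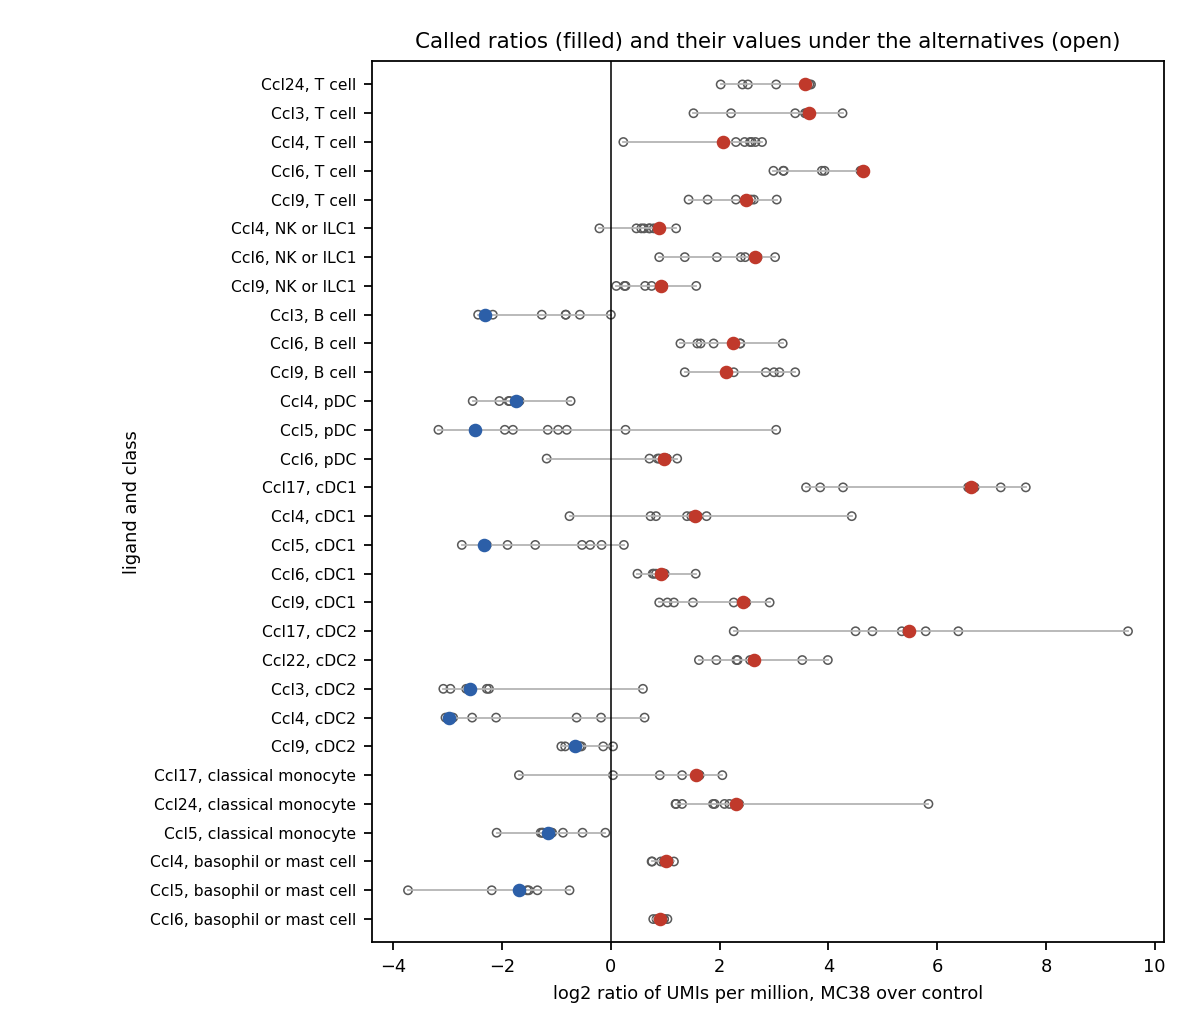
Log2 ratio, MC38 over control, of the 30 called pairs of ligand and class with UMIs in both libraries (filled, red higher and blue lower) and their values under up to 10 alternatives (open), joined by a grey line. Basophil or mast cell values lie close together for Ccl6 (0.78 to 1.04) and Ccl4 (0.75 to 1.16), while Ccl5 in pDC spans -3.17 to 3.04.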

How the data were processed

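Per the file headers and the values, the authors deposited raw counts of UMIs per gene and barcode, for each of 2 droplet libraries made with a 10x Genomics 5-prime kit, per the labels' protocols. The submitters' processing notes list Seurat 2.3.4, R 3.6.0, Cell Ranger 2.2, bcl2fastq and STAR beside the build GRCm38.p6, without a role for each, and the matrix header gives software version 3.0.2. Clusters were made in scanpy 1.11.5 with igraph 0.11.9, intervals in scipy 1.17.1 and sums in numpy 2.4.6 and pandas 2.3.3 under Python 3.11.15, with plots from matplotlib 3.10.9.

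Kept were barcodes with 200 or more genes and no more than 10% mitochondrial UMIs (13 genes), and 569 control and 1727 MC38 scrublet doublet calls were removed (expected rate 0.008 per 1000 barcodes). The median kept cell held 7773 UMIs in the control and 4034 in MC38. Each cell took the class with the highest weighted share of its detected markers, of 20 classes, with at least 3 markers and a margin of 0.10. Macrophages and Kupffer cells were scored together, and a cell with at least 2 of Clec4f, Vsig4, Timd4 and Cd5l was a Kupffer cell. T, NK or ILC1 and B cells with more than 15 UMIs of Lyz2, Csf1r and Cst3 together were left out, as were cells of other classes with more than 4 UMIs of T or B cell genes. Of gated cells, 3.89% in the control and 6.97% in MC38 lay within 0.05 of the margin. These thresholds were set after marker values were seen but without the CC chemokines. The members, marker lists, gene lists and rules were chosen with earlier results of these data known.

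UMIs were summed per class and library, and a level is per 1000000 of that sum. With 1 library per group, cells are not replicates, and no test between groups was run. Intervals are exact (Poisson, Clopper-Pearson binomial, or conditional for a ratio) at 95% and, like floors of 3 counts, cover counting error only. Named were all 10 ligands in classes of at least 50 cells, receptors and other ligands past the call (1 receptor is not reported here), and the 3 genes most like each ligand (at least 100 UMIs), of which some are printed. The count rule was tested on simulated Poisson counts, the model that the intervals assume. That test cannot show how the rule behaves where a few cells hold most UMIs of a ligand. Motifs and shared stretches of promoters were searched after the levels were known. Alternatives were doublet calls kept, mitochondrial limits of 5% and 30%, at least 500 genes, classes from Leiden clusters made without Ccl genes, a stricter gate, the mean over cells, leaving out the 10 highest cells, thinning to 1000 UMIs, and a median-ratio scaling. The median log2 ratio over genes differed from 0 by more than 0.1 in B cells (-0.14), basophils or mast cells (-0.15) and nonclassical monocytes (0.11).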

Additional observations from a re-analysis of the deposited data

Results flagged for a closer look

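Ccl3, Ccl4 and Ccl9 were called in opposite directions in T cells and cDC2. The log2 ratio of MC38 over control was 3.65 in T cells and -2.59 in cDC2 for Ccl3, 2.06 and -2.97 for Ccl4, and 2.48 and -0.66 for Ccl9. The difference between the classes was not tested, because each class had 1 library per group. The cDC2 values of Ccl3 rest on 16 control and 2 MC38 UMIs, and those of Ccl4 on 52 and 5. The opposition did not hold in every alternative. With classes from clusters the cDC2 values were 0.59 for Ccl3, -0.18 for Ccl4 and 0.04 for Ccl9, and 0 ligands were called lower there, while with the stricter gate Ccl4 was 0.62. The cDC2 call was kept in 6 of 8 alternatives for Ccl3, 5 of 9 for Ccl4 and 6 of 10 for Ccl9.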

How the results depend on the processing

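Of 30 called log2 ratios, 10 kept their call in every alternative that gave a value. Among the ratios that were called, directions turned in 11 alternative values. The 624 alternative values compared include those of ratios that were not called, for which changes of direction were not counted. Leaving out the 10 highest cells gave -0.21 for Ccl4 in NK or ILC1 cells. Keeping doublet calls gave 0.00 for Ccl3 in B cells and 0.27 for Ccl5 in pDC. A mitochondrial limit of 5% gave 3.04 for Ccl5 and -1.18 for Ccl6 in pDC. Thinning to 1000 UMIs gave -0.76 for Ccl4 and 0.24 for Ccl5 in cDC1. Classes from clusters gave 0.59 for Ccl3 and 0.04 for Ccl9 in cDC2, and -1.69 for Ccl17 in classical monocytes. The stricter gate gave 0.62 for Ccl4 in cDC2. The cause was not tested.

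The number of pairs called higher was 22, against 10 with thinning and 14 without the 10 highest cells. The share of all genes called is given for the main setting only, so the counts under the alternatives have no background beside them. The number called lower was 10, against 4 at the 5% limit and 3 with thinning. Thinned cells hold fewer UMIs, so fewer ratios can pass. With thinning, the number called higher was 1 in NK or ILC1 cells, 0 in B cells, 0 in pDC, 1 in cDC1, 1 in cDC2 and 1 in classical monocytes, and the number called lower was 0 in B cells, 1 in pDC, 0 in cDC1, 0 in cDC2, 2 in classical monocytes and 0 in basophils or mast cells. Without the 10 highest cells, 3 were higher in T cells, 1 in NK or ILC1 cells, 2 in cDC1 and 1 in cDC2, and 1 was lower in NK or ILC1 cells, 0 in B cells, 2 in cDC2 and 0 in basophils or mast cells. With classes from clusters, 9 were higher in T cells, and 0 were lower in cDC2 and 4 in classical monocytes. The stricter gate gave 3 higher in cDC1 and 1 in classical monocytes, and 0 lower in B cells, 0 in cDC1, 2 in cDC2, 3 in classical monocytes and 0 in basophils or mast cells. The 5% limit gave 1 higher in classical monocytes, and 0 lower in cDC1, 0 in cDC2, 2 in classical monocytes and 0 in basophils or mast cells. The 30% limit gave 4 higher and 2 lower in B cells, 2 higher in pDC and 2 lower in cDC1. The mean over cells gave 4 higher in B cells and 2 lower in classical monocytes. Keeping doublet calls gave 0 lower in B cells, and in basophils or mast cells 0 were lower with at least 500 genes per cell or with scaling by the median ratio.

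No paired analysis was possible because each group had 1 library. Differences between mice cannot be seen, since 3 mice were pooled in each.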
